A study of Homo sapiens with 9 samples.

Results

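The genes described here are the integrin, cadherin and claudin genes of LNCaP prostate cancer cells, the receptors and junction proteins by which a cell holds on to the matrix and to its neighbours. Members were chosen by symbol alone (ITGA or ITGB, CDH, or CLDN followed by its number or letter, with ITGB1BP genes left out) among the genes whose normalized counts averaged 1 or more across the 9 libraries. Of 19984 gene identifiers in the table, 75 matched these symbols and 68 passed the level filter, namely 28 integrins, 20 cadherins and 20 claudins. The 7 that did not pass were *CLDN16*, *CLDN25*, *CDH16* and *CDH19*, with means of 0.539, 0.437, 0.319 and 0.214, and *CDH5*, *CLDN17* and *CLDN24*, which had 0 reads in all 9 libraries, where a count of 0 allows up to 3 read pairs per library. The symbol rule also took in *ITGB3BP*, a centromere protein, and *ITGBL1*, a secreted protein, which are not integrin subunits.

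RNA-seq was made from 3 clones of LNCaP, a human prostate cancer line derived from a lymph node metastasis. In 2 of them, del-4 and del-56 (the *EPCART*-del clones), the promoter and first exons of the long noncoding RNA gene *EPCART* on chromosome 2 were deleted by CRISPR-Cas9, and the WT clone kept them. All clones were grown for 48 hours in the same medium with FBS, glutamine and antibiotics, and 3 biological replicates of each clone gave 1 library each. Each genotype is thus represented by single clones, so that a difference between clones and an effect of the deletion cannot be told apart, and p-values measure the spread between libraries of a clone.

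Integrins are pairs of an alpha and a beta subunit that bind matrix proteins such as collagen, laminin, fibronectin and vitronectin and link them to the actin cytoskeleton through talin and kindlin. Classical cadherins bind each other across neighbouring cells and are tied to actin by catenins, and E-cadherin (*CDH1*) is the main one of luminal prostate epithelium. Claudins are four-pass membrane proteins that form the strands of tight junctions and set which ions and molecules pass between cells.

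Library depth ranged from 91074556 to 118877134 reads on genes. The summed level of 7 luminal prostate markers was 246557 to 266134 normalized counts in WT and 265382 to 277195 in the *EPCART*-del clones, whereas 4 basal prostate markers summed to between 19.4 and 64.3 in every library. The deposited values counted reads over the whole span of a gene without regard to strand, as pairs of nested genes showed. Where a gene with a mean of at least 100 lay inside the span of another gene, the outer gene had at least as many counts in 516 of 523 pairs on the same strand and in 320 of 323 pairs on opposite strands. A value therefore holds intron reads and the reads of any gene inside the span, and 19 of the 68 members overlapped another protein-coding gene. Of these, 5 held a whole gene with reads. For them the values without the nested reads are given below as well, except for *CLDN12*, where the nested gene had 0.298% of its mean. The count of a nested gene also takes in reads of the member itself from that stretch, so the subtraction can remove the member's own reads too.

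In the comparison of the *EPCART*-del clones with WT, more members fell than rose in either clone. A member was called when its adjusted p was under 0.05 by limma over all genes tested, on log2(normalized count + 1). In del-4, 6 of 66 tested members rose and 13 fell, against 20.5% of all genes tested that rose and 20.2% that fell. The share of members that fell, 19.7%, was thus close to that of all genes, and the share that rose, 9.09%, was lower. In del-56, 7 of 66 members rose and 18 fell, or 10.6% and 27.3%, against 19.2% and 20.5% of all genes tested. The number that rose was 3 without del-4 replicate 3, WT replicate 2 or WT replicate 3 in the first comparison. It was 4 without del-56 replicate 1, del-56 replicate 2, WT replicate 1 or WT replicate 3 in the second. When each library was rescaled to the same total, the genes called in del-4 shifted from 3565 higher and 3517 lower to 2364 and 4932, and the members to 4 higher and 17 lower.

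Larger changes were mostly falls. At least 2-fold and called were 1 higher and 4 lower members in del-4, or 1.52% and 6.06% of those tested, against 1.89% and 2.94% of all genes. In del-56 they were 3 higher and 7 lower, or 4.55% and 10.6%, against 2.18% and 2.69% of all genes. Both comparisons use the same WT libraries. All 3 libraries of del-4 lay above all WT libraries for 6 members and below them for 16, and those of del-56 for 6 and 21, where 49.5% and 48.7% of all genes tested did not overlap in either direction.

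By family, the median log2 fold change of the members tested for claudins was -0.22 (del-4) and -0.26 (del-56), -0.17 and -0.50 for cadherins, and -0.16 and -0.062 for integrins, beside -0.0028 and -0.0011 over all genes. The cadherin median in del-4 was 0.052 without del-4 replicate 2 and 0.019 without WT replicate 1, and otherwise ran down to -0.35 (without del-4 replicate 3), and the del-56 median was -0.29 without del-56 replicate 1, -0.27 without WT replicate 1 and -0.31 without WT replicate 3. That of integrins in del-4 was -0.10 without WT replicate 2, and its del-56 value was -0.036 without del-56 replicate 1, -0.040 without del-56 replicate 2 and -0.14 without del-56 replicate 3. Members tested numbered 66 in each fit, since *CDH10* and *CDH11* in del-4, and *CDH22* and *CLDN19* in del-56, had a mean under 1 in the libraries compared.

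**Figure D1:**
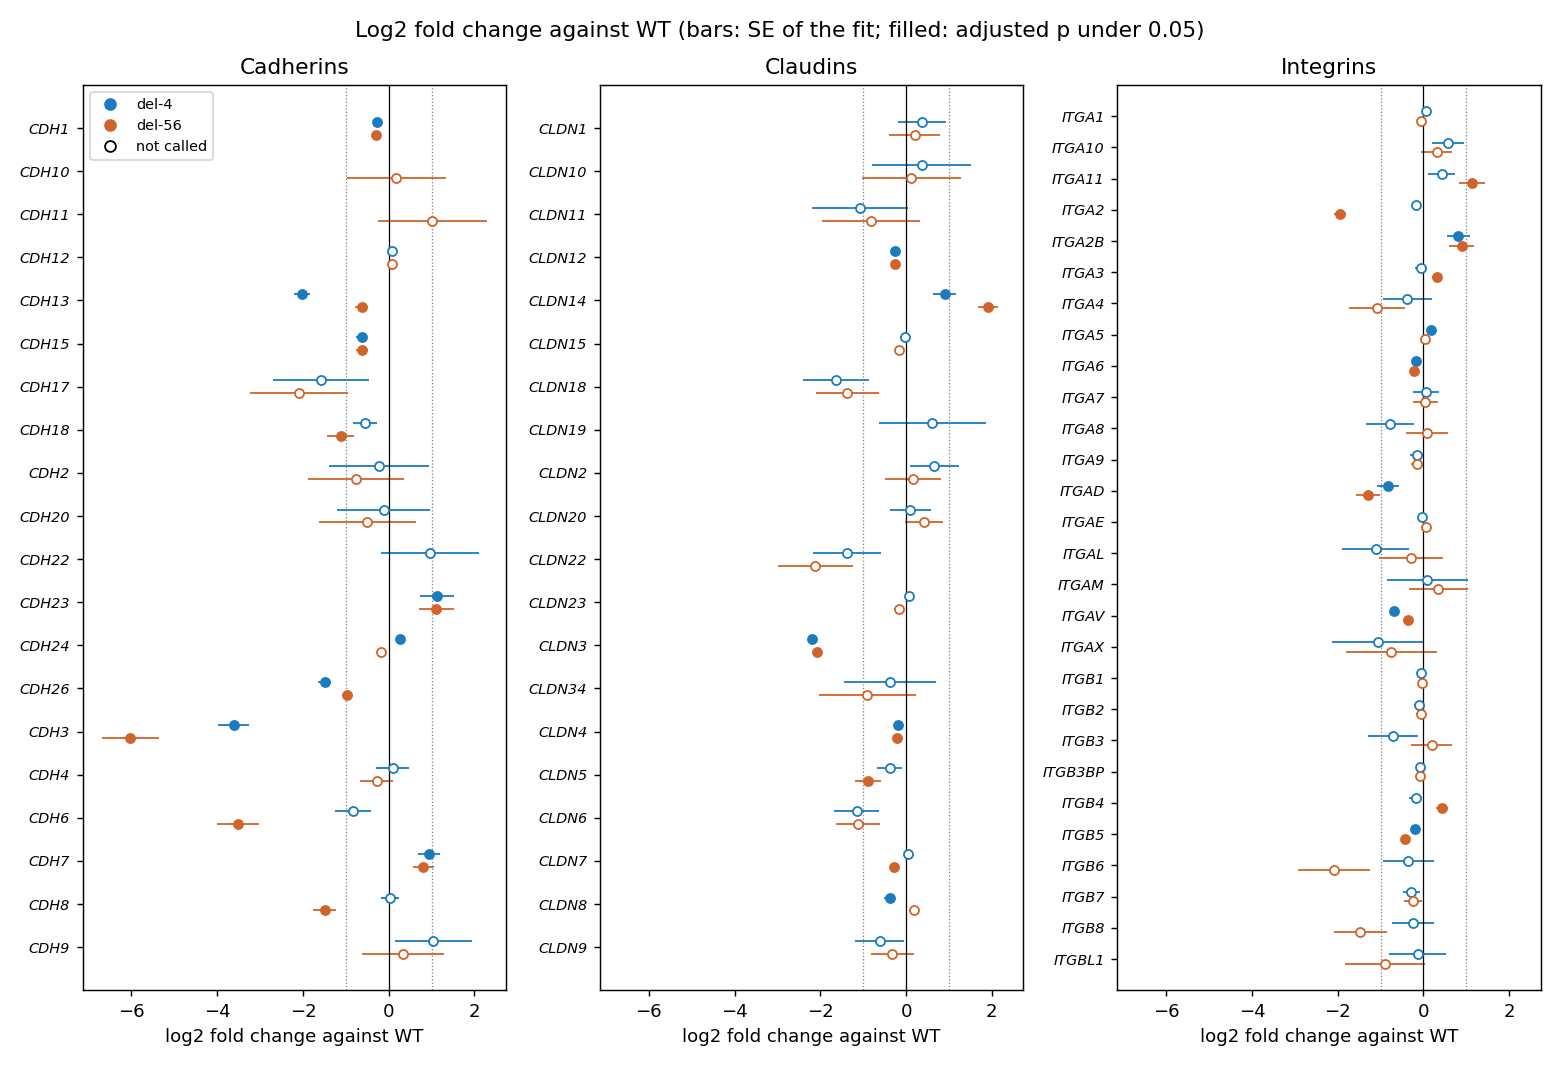
Log2 fold change of each member in del-4 (blue) and del-56 (orange) against WT, by family, with the SE of the fit as bars and filled points for an adjusted p under 0.05. Dotted lines mark a 2-fold change. *CDH3*, *CLDN3* and *CDH26* lie to the left in both clones, *CDH6* and *ITGA2* in del-56, and *CLDN14* lies to the right.

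Among claudins the largest fall in both clones was that of *CLDN3*. Per kb of exon, *CLDN7* had the highest mean level in WT with 11763 normalized counts, followed by *CLDN3* with 4442, *CLDN4* with 3194 and *CLDN12* with 1504. In the *EPCART*-del clones *CLDN3* ranked below both *CLDN4* and *CLDN12*, with libraries at 909 to 1076 in del-4 and 937 to 1117 in del-56, where those of *CLDN12* were at 1225 to 1303 and 1235 to 1269.7.

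*CLDN3*, a barrier-forming claudin of many epithelia, had normalized counts of 5594, 6039 and 5343 in WT, against 1371, 1158 and 1201 in del-4, with 1423, 1381 and 1193 in del-56. All 6 deletion libraries lay far below the WT libraries, and del-4 and del-56 overlapped each other. The log2 fold change was -2.19 (adjusted p = 2.1e-14, SE 0.064) in del-4 and -2.09 (adjusted p = 2.1e-12, SE 0.067) in del-56, and its mean was at 0.220 and 0.235 of that in WT. *CLDN4*, its neighbour on chromosome 7 and likewise a claudin of epithelial barriers, had 15131, 15048 and 14847 in WT, against 13866, 12701 and 13089.9 in del-4, with 14042, 12395 and 12537 in del-56. Its deletion libraries were also all below WT, but by far less, with log2 fold changes of -0.18 (adjusted p = 0.00065, SE 0.037) and -0.21 (adjusted p = 0.0014, SE 0.045).

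The stretches upstream of these genes are shown because the neighbours differed so much in the size of their fall. Each is the 250 bases before the RefSeq start, read 5′ to 3′ in the direction of the gene, from RefSeq on GRCh38.p14. Capitals mark every match on either strand to the GC box GGGCGG, the TATA box core TATAA or the E-box CAGGTG. *CLDN3* lies on the minus strand with its window at chr7:73770271-73770520, and *CLDN4* on the plus strand at chr7:73830746-73830995.
CLDN3: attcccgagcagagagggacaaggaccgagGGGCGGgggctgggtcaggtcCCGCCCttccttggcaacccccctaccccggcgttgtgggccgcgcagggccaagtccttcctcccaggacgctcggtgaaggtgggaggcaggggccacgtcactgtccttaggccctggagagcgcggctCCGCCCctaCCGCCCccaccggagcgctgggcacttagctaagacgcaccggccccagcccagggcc
CLDN4: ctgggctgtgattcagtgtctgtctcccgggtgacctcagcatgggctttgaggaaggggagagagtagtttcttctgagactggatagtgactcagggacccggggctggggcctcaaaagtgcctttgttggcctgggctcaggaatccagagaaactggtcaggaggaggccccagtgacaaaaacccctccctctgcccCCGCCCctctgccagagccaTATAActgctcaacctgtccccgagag

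The *CLDN3* window held 4 GC boxes, 19 CpG and no TATA box core, and 71.6% of its bases were G or C. The *CLDN4* window held 1 GC box, a TATA box core starting 27 bases before the start and 4 CpG, with 58.8% G or C. Neither held the E-box. Over all 35116 RefSeq windows of this length, 42.6% held the GC box, 18.9% the TATA box core and 17.5% the E-box, and the medians were 58% G or C and 11 CpG. RefSeq windows were found for 45 of the 68 members, and of the 68 windows of these members (some genes have several starts) 25 held the GC box, 11 the TATA box core and 9 the E-box. A match is a description of the letters only.

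*CLDN7*, another claudin of glandular epithelium, had 29481, 29239 and 29222 in WT, against 31646, 28245 and 30927 in del-4, with 25013, 23545 and 24425 in del-56. The del-56 libraries were all below WT and below del-4, whereas del-4 overlapped WT. Its log2 fold change was -0.27 (adjusted p = 2.1e-05, SE 0.036) in del-56 and 0.045 (adjusted p = 0.41, SE 0.040) in del-4, and it passed the test in del-4 only without del-4 replicate 2 (adjusted p = 0.049). *CLDN7* overlaps *ELP5* and a coding gene without a symbol on the same strand whose mean was 109% of its own, so its reads are shared with that gene.

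*CLDN14*, a claudin known for its role in the inner ear and kidney, moved the other way. Its normalized counts were 42.5, 65.6 and 49.0 in WT, against 108, 101 and 84.4 in del-4, with 176, 219 and 201 in del-56. The 3 clones did not overlap, with del-56 highest and del-4 between it and WT. The log2 fold change was 0.90 (adjusted p = 0.011, SE 0.26) in del-4 and 1.92 (adjusted p = 7.4e-06, SE 0.23) in del-56.

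A further 3 claudins were called, and are named after their values were seen. *CLDN12*, a claudin without the usual binding motif for ZO proteins, fell from 10087 ± 341 (SD, n = 3) in WT to 8499.9 ± 265 in del-4 and 8420.1 ± 122 in del-56, with log2 fold changes of -0.25 and -0.26 and no overlap with WT. Its span partly overlaps *CDK14* and *GTPBP10*, whose means were 70.8% and 64.5% of its own. *CLDN8*, a claudin of kidney and gut, fell in del-4 by 0.38 on the log2 scale, a call that was lost without del-4 replicate 2, del-4 replicate 3, WT replicate 2 or WT replicate 3 (adjusted p = 0.073 to 0.10) and with quantile normalization (adjusted p = 0.057), and it was 0.19 (adjusted p = 0.23, SE 0.12) in del-56. *CLDN5*, the main claudin of endothelium, had 105 ± 28.5 in WT and 56.5 ± 15.9 in del-56, a log2 fold change of -0.89 (adjusted p = 0.026, SE 0.30) that was lost without del-56 replicate 2, WT replicate 1 or WT replicate 3 (adjusted p = 0.089 to 0.13). Of the other endothelial markers, *CDH5* was at 0 in every library, and *PECAM1* and *KDR* had means of at most 3.34 and 6.77 in any clone. *VWF* had 596 ± 14.2 in WT, against 304 ± 16.2 in del-4 and 641 ± 115 in del-56. Its log2 fold change was -0.97 (adjusted p = 1.5e-06, limma) in del-4 and 0.088 (adjusted p = 0.61, limma) in del-56. The part of these markers in the *CLDN5* value was not tested.

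The other 13 claudins were not called in either clone. *CLDN23* and *CLDN15* were the most abundant of them, with means of 879 and 502 over the 9 libraries. *CLDN1*, *CLDN20*, *CLDN9*, *CLDN2* and *CLDN6* had means between 15.3 and 25.5, and *CLDN22*, *CLDN18*, *CLDN11*, *CLDN10*, *CLDN34* and *CLDN19* between 1.26 and 5.27. *CLDN6* libraries of del-4 were all below WT, at a log2 fold change of -1.15 (adjusted p = 0.091, SE 0.52), which did not pass the test. *CLDN2*, *CLDN20*, *CLDN22* and *CLDN11* lie inside the spans of other coding genes, so that intron reads of those genes count for them. *CLDN6* and *CLDN10* partly overlap *TNFRSF12A* and *DZIP1* on the opposite strand, which had means of 1076 and 60.2.

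**Figure D2:**
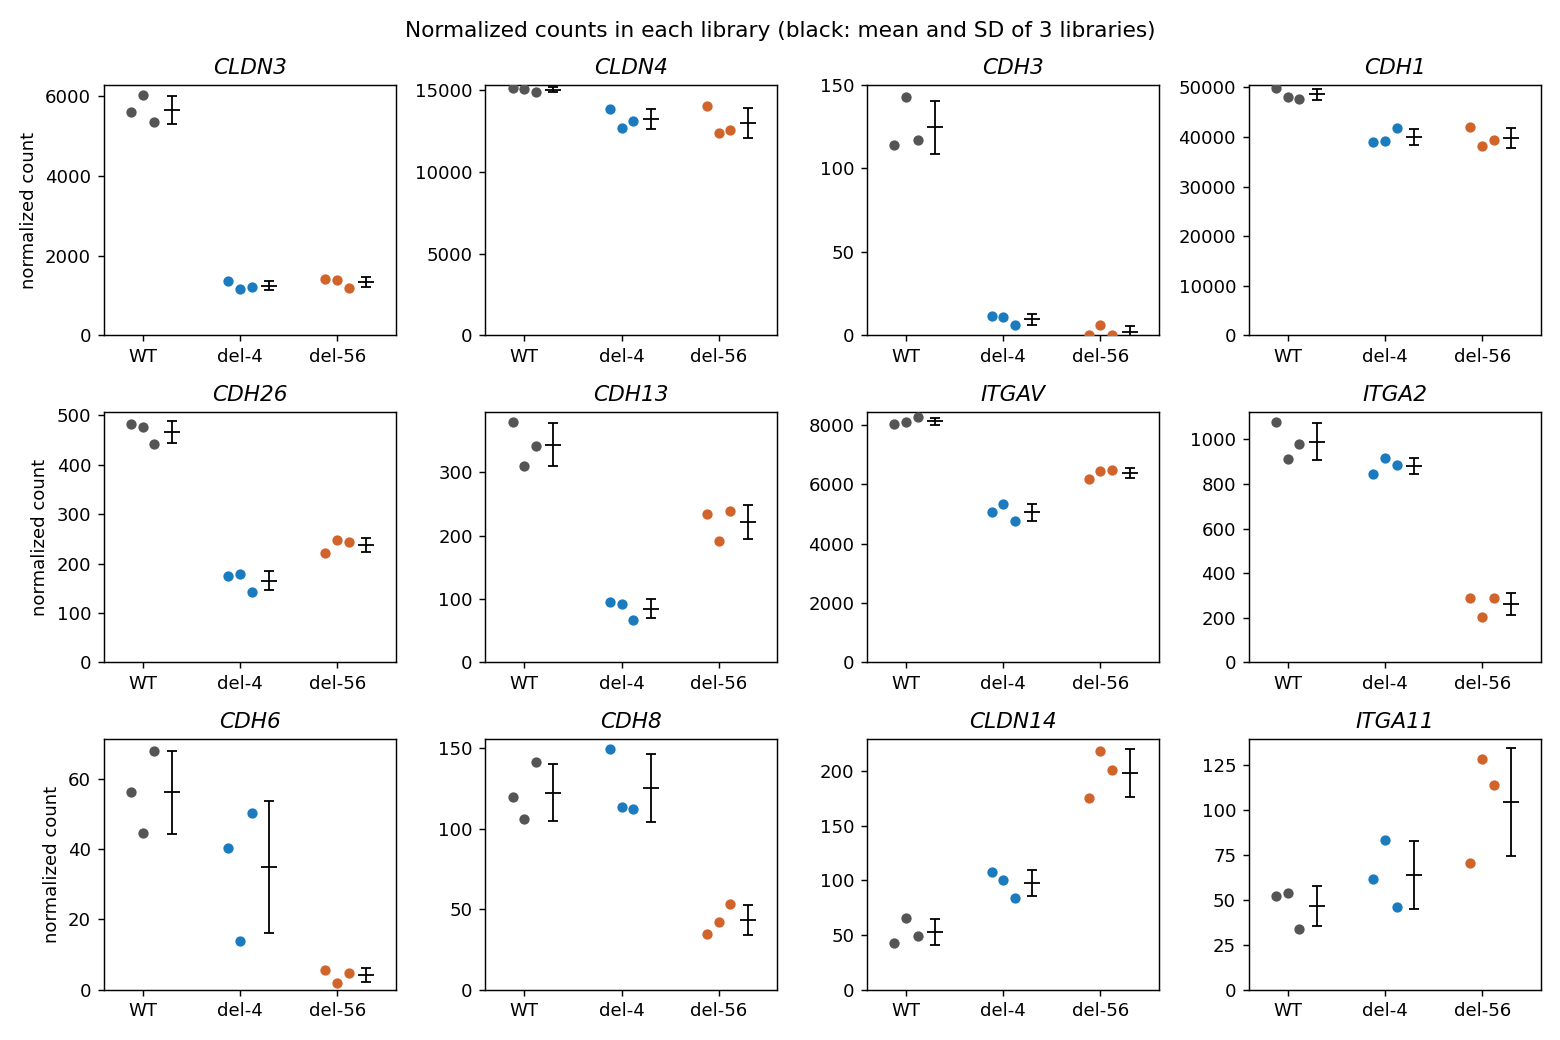
Normalized counts of 12 members in each library of WT, del-4 and del-56, with the mean and SD of 3 libraries in black, each panel starting at 0. *CLDN3* and *CDH3* were low in both *EPCART*-del clones, *ITGA2*, *CDH6* and *CDH8* in del-56, and *CDH13* and *CDH26* were lowest in del-4.

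Among cadherins, E-cadherin was by far the most abundant transcript and fell slightly, while P-cadherin was nearly lost. *CDH1* made up 90.0% of the summed cadherin level per kb in WT, against 88.7% in del-4 and 89.6% in del-56. Its normalized counts were 49895, 48152 and 47678 in WT, against 38953, 39094 and 41766 in del-4, with 41978, 38129.7 and 39352 in del-56. All deletion libraries lay below all WT libraries. The log2 fold change was -0.28 (adjusted p = 9.4e-06, SE 0.038) in del-4 and -0.29 (adjusted p = 4.8e-05, SE 0.042) in del-56, and its mean was at 0.822 and 0.820 of that in WT.

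*CDH1* lies on chromosome 16, where most genes were lower in both clones. Of 790 genes tested on this chromosome, 707 had a negative log2 fold change in del-4, with a median of -0.34, and 686 of 791 did in del-56, with a median of -0.31. With the median of its chromosome subtracted, *CDH1* was at 0.060 and 0.024 (adjusted p = 0.24 and 0.71, limma). Of the 68 members, 12 lie on chromosome 16, among them 6 cadherins, 4 leukocyte integrin alpha subunits and 2 claudins. With the subtraction, 6 members rose and 10 fell in del-4, against 18.6% and 17.7% of all genes tested, and 5 rose and 15 fell in del-56, against 17.2% and 18%.

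*CDH3* encodes P-cadherin, which in prostate marks basal cells, and is the next gene to *CDH1* on the chromosome. Its normalized counts were 114, 143 and 117 in WT, against 11.5, 11 and 6.03 in del-4, with 0, 6.02 and 0 in del-56. No deletion library came near a WT library, and 2 of the 3 del-56 libraries had 0 reads. The log2 fold change was -3.62 (adjusted p = 2.4e-07, SE 0.36) in del-4 and -6.03 (adjusted p = 2.6e-06, SE 0.66) in del-56. The del-56 value depends on the constant added before the logarithm, being -4.31 with 5 and -6.72 with 0.5. Of 4 basal markers, *KRT5* and *TP63* had mean normalized counts of at most 0.322 and 3.86 in any clone. *KRT15* was at 0.322 in WT, against 2.61 in del-4 and 3.35 in del-56, and *KRT14* at 26.9, 40.3 and 32.2. None of the 4 was called in either clone where it was tested. With the chromosome median subtracted, *CDH3* was at -3.28 and -5.72.

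**Figure D3:**
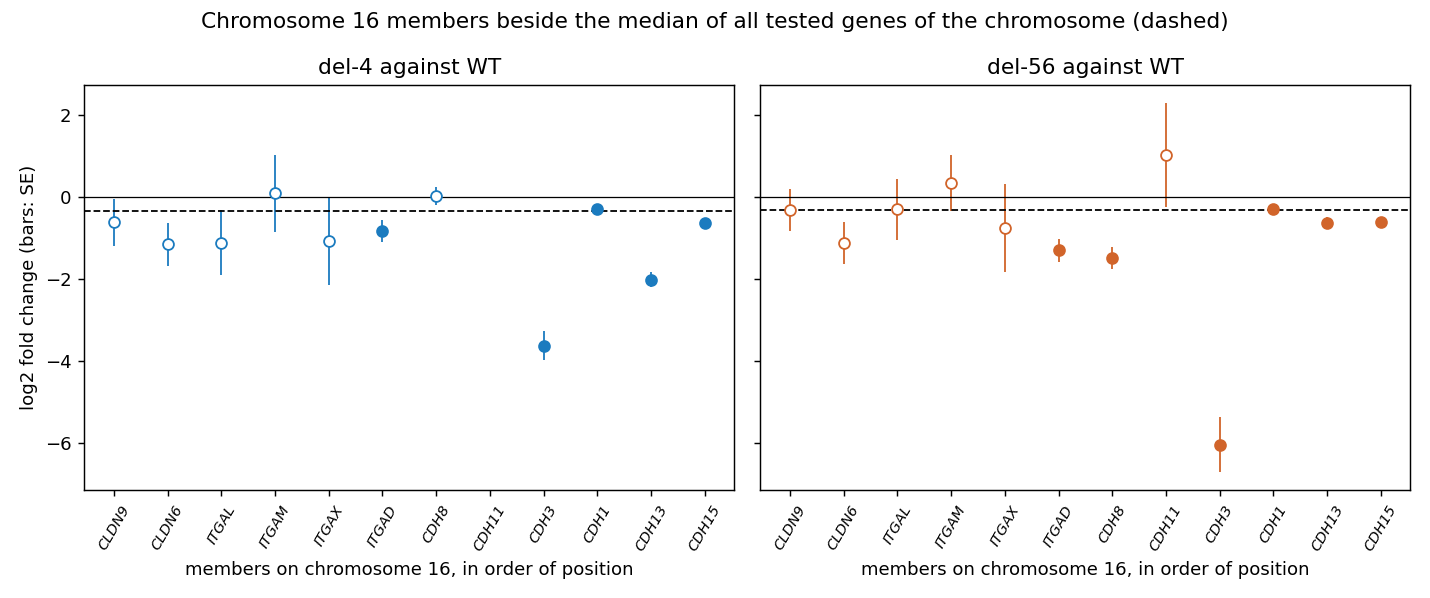
Log2 fold change of the 12 members on chromosome 16 in del-4 (left) and del-56 (right) against WT, in order of position, with the SE as bars, filled points for an adjusted p under 0.05, and the median of all tested genes of the chromosome as a dashed line. *CDH1* sits close to the dashed line in both clones, and *CDH3* lies far below it.

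The remaining classical (type I) cadherins were of low level. *CDH2*, N-cadherin, whose gain in place of E-cadherin is a known mark of mesenchymal change, had 3.87, 1.93 and 0 in WT, against 0, 0 and 8.04 in del-4, with 1.91, 0 and 0 in del-56. It stayed at a few reads or none in every clone, with log2 fold changes of -0.22 (adjusted p = 0.91, SE 1.2) and -0.76 (adjusted p = 0.64, SE 1.1), a difference that would have to be large to be detected at this level. *CDH15*, the M-cadherin of muscle, had 435 ± 43.6 (SD, n = 3) in WT, against 280.1 ± 19.4 in del-4 and 284 ± 45.8 in del-56, without overlap between either clone and WT. It fell by 0.63 and 0.62 on the log2 scale (adjusted p = 0.00070 and 0.0026, limma). With the median of chromosome 16 subtracted it was at -0.29 and -0.31 and was not called. *CDH4*, R-cadherin, had a mean of 28.6 and was not called.

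*CDH13* encodes T-cadherin, which is held by a lipid anchor and has no cytoplasmic tail. Its normalized counts were 379, 309.8 and 341 in WT, against 95.1, 92.6 and 67.3 in del-4, with 234, 191 and 239 in del-56. The clones did not overlap, with del-4 lowest, del-56 between and WT highest. The span of *CDH13* partly overlaps *HSBP1* on the same strand, whose mean was 11426. Its log2 fold change was -2.01 (adjusted p = 1.2e-07, SE 0.19) in del-4 and -0.63 (adjusted p = 0.0030, SE 0.15) in del-56. After subtraction of the chromosome 16 median these were -1.67 and -0.32, and the del-56 value no longer passed the test (adjusted p = 0.096, limma).

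*CDH26*, a cadherin described in inflamed epithelium, had 482, 477 and 441 in WT, against 176, 178 and 143 in del-4, with 222, 248 and 244 in del-56. Again the 3 clones were apart, in the order WT, del-56, del-4. Its log2 fold change was -1.50 (adjusted p = 1.7e-07, SE 0.14) in del-4 and -0.97 (adjusted p = 1.6e-05, SE 0.13) in del-56.

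*CDH23*, a cadherin of the tip links of hair cells, had 68.6, 20.3 and 24.5 in WT, against 93.2, 74.7 and 55.2 in del-4, with 76.3, 52.2 and 92.2 in del-56. WT replicate 1 overlapped the deletion libraries, and the other WT libraries were lower than all of them. Its log2 fold change was 1.14 (adjusted p = 0.029, SE 0.40) in del-4 and 1.11 (adjusted p = 0.041, SE 0.41) in del-56. The del-4 call was lost without del-4 replicate 1, del-4 replicate 2, WT replicate 2 or WT replicate 3 (adjusted p = 0.080 to 0.15), and the del-56 call without del-56 replicate 1, del-56 replicate 3, WT replicate 2 or WT replicate 3 (adjusted p = 0.085 to 0.19). By edgeR the adjusted p was 0.059 and 0.082, and by DESeq2 0.061 and 0.073. The genes *VSIR* and *C10orf105* lie inside *CDH23*, and the mean of *VSIR* was 44.7% of its own. Without their reads *CDH23* had 33.8, 10.6 and 17.0 in WT, against 44.2, 46.8 and 25.1 in del-4, with 36.3, 23.1 and 53.4 in del-56, and neither clone was called (adjusted p = 0.091 and 0.14, limma).

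Of the 11 type II cadherins, many of them known from the nervous system, *CDH6*, *CDH8* and *CDH24* were called in del-4 against del-56. *CDH6*, the K-cadherin of kidney, had 56, 44.4 and 67.9 in WT, against 40.3, 13.9 and 50.2 in del-4, with 5.72, 2.01 and 4.85 in del-56. The del-56 libraries were all far below the others, whereas del-4 overlapped WT. The log2 fold change was -3.52 (adjusted p = 2.9e-05, SE 0.49) in del-56 and -0.83 (adjusted p = 0.12, SE 0.41) in del-4.

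*CDH8*, a synaptic cadherin, had 119.8, 106 and 141 in WT, against 149.8, 114 and 112 in del-4, with 34.3, 42.2 and 53.4 in del-56. Here too del-56 alone stood below, and del-4 lay within the range of WT or above it. It fell in del-56 at a log2 fold change of -1.49 (adjusted p = 0.00030, SE 0.26), and it was at 0.030 (adjusted p = 0.93, SE 0.21) in del-4. *CDH8* lies on chromosome 16, whose median log2 fold change was -0.31 in del-56 and -0.34 in del-4.

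*CDH18*, a cadherin of the central nervous system, had 101, 61.8 and 71.6 in WT, against 55.7, 45.8 and 54.2 in del-4, with 36.3, 26.1 and 43.7 in del-56. All deletion libraries were below WT, del-56 more so. It fell in del-56, with a log2 fold change of -1.12 (adjusted p = 0.0098, SE 0.32), a call that was lost without WT replicate 1 (adjusted p = 0.058), and was -0.55 (adjusted p = 0.13, SE 0.28) in del-4.

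*CDH7*, named after its values were seen, rose in both clones, from 55.2 ± 8.26 (SD, n = 3) in WT to 107 ± 23.1 in del-4 and 96.8 ± 4.86 in del-56, with log2 fold changes of 0.93 and 0.81 and no overlap with WT. Its del-56 call was lost without del-56 replicate 2 or WT replicate 1 (adjusted p = 0.053 to 0.058). *CDH24*, which was the third most abundant cadherin per kb, had 1233, 990.3 and 1075 in WT, against 1321, 1222 and 1384 in del-4, with 968, 948 and 987 in del-56. The del-4 libraries were above those of del-56 and overlapped WT at one library. It rose in del-4 with a log2 fold change of 0.26 (adjusted p = 0.020, SE 0.083), a call that was lost without del-4 replicate 1, del-4 replicate 3, WT replicate 2 or WT replicate 3 (adjusted p = 0.054 to 0.12) and with libraries rescaled to the same total (adjusted p = 0.082). Its del-56 value was -0.18 (adjusted p = 0.12, SE 0.086), and passed the test without WT replicate 2 (adjusted p = 0.049).

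*CDH12*, second per kb among cadherins, had 2026, 1822 and 1763 in WT, against 2147, 2086 and 1744 in del-4, with 1719, 2038 and 2197 in del-56. The clones overlapped, and its log2 fold changes of 0.088 and 0.081 did not pass the test. The 6 other cadherins, *CDH9*, *CDH10*, *CDH11*, *CDH17*, *CDH20* and *CDH22*, had means between 1.01 and 3.19 over the 9 libraries. None of them was called where it was tested. *CDH17*, the cadherin of intestinal epithelium, had 0 reads in all del-56 libraries and 10.6, 5.79 and 0 in WT.

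Among integrins, the most abundant subunit was not called, and several of its alpha partners were. *ITGB1*, the beta subunit shared by most collagen, laminin and fibronectin receptors, had 49585, 47330.3 and 48092 in WT, against 46959.5, 46630.0 and 46038 in del-4, with 46422, 47775 and 47422 in del-56. The WT and del-4 libraries did not overlap, but the gap was small, and WT and del-56 overlapped. Its log2 fold change was -0.054 (adjusted p = 0.24, SE 0.035) in del-4 and -0.034 (adjusted p = 0.52, SE 0.037) in del-56, with 95% intervals of -0.13 to 0.020 and -0.11 to 0.045. It passed the test in del-4 when libraries were rescaled to the same total (log2 fold change -0.12) or quantile normalized (-0.11). Per kb of exon, *ITGB1* made up 42.0% of the summed integrin level in WT, against 43.1% in del-4 and 43.9% in del-56.

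*ITGAV*, the alpha subunit of vitronectin receptors, which pairs with *ITGB1*, *ITGB3*, *ITGB5*, *ITGB6* and *ITGB8*, fell in both clones and more in del-4. Its normalized counts were 8029.6, 8092 and 8266 in WT, against 5079, 5349 and 4781 in del-4, with 6195, 6465 and 6495 in del-56. The 3 clones were apart, with del-4 lowest, del-56 between and WT highest. The log2 fold change was -0.68 (adjusted p = 7.7e-10, SE 0.043) in del-4 and -0.35 (adjusted p = 3.1e-06, SE 0.039) in del-56. *ITGAV* lies on chromosome 2, 6.45 Mb from the span that the *EPCART* oligos of the study cover, and the median log2 fold change of that chromosome came to -0.15 (del-4) and -0.16 (del-56). With that median subtracted, it was at -0.53 and -0.19.

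The other members on chromosome 2 were *ITGA6*, *ITGA4* and *ITGB6*. *ITGA6*, a laminin receptor subunit 7.61 Mb from the span, had 4271, 4228 and 4183 in WT, against 3539, 4013 and 3684 in del-4, with 3574, 3617 and 3793 in del-56, with all deletion libraries below WT. It fell by 0.18 on the log2 scale in del-4 and 0.21 in del-56, and with the chromosome median subtracted it was at -0.025 and -0.049 and not called. *ITGA4*, a subunit of leukocyte receptors for VCAM1 and the nearest member to *EPCART* at 1.32 Mb, had 9.66, 11.6 and 17.9 in WT, against 5.76, 7.97 and 18.1 in del-4, with 1.91, 12 and 6.06 in del-56. Its libraries overlapped and it was not called (log2 fold change -0.38 and -1.08). The span of *ITGA4* partly overlaps *CERKL* on the opposite strand, whose mean was 95.5% of its own. *ITGB6*, an epithelial partner of *ITGAV*, had 5.80, 29.0 and 20.7 in WT, against 7.68, 12 and 18.1 in del-4, with 0, 6.02 and 7.28 in del-56 and was not called either (adjusted p = 0.68 and 0.061, limma).

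*ITGB5*, the beta subunit that forms a vitronectin receptor with *ITGAV*, had 4571, 4766 and 4975 in WT, against 4308, 3872 and 4369 in del-4, with 3892, 3406 and 3298 in del-56. All deletion libraries were below WT, del-56 mostly the lowest. It fell in both clones, with log2 fold changes of -0.19 (adjusted p = 0.0055, SE 0.051) and -0.44 (adjusted p = 2.1e-05, SE 0.059), and the del-4 call was lost without WT replicate 3 (adjusted p = 0.055). *ITGB8* and *ITGB3*, further partners of *ITGAV*, had means of 20 and 11.2 and were not called. *ITGA5*, the fibronectin receptor subunit, was named after its values were seen. It rose in del-4 from 2144 ± 85.2 to 2428 ± 134 (SD, n = 3), a log2 fold change of 0.18 (adjusted p = 0.018, SE 0.057) that was lost without del-4 replicate 2, del-4 replicate 3 or WT replicate 3 (adjusted p = 0.061 to 0.097) and, with libraries rescaled to the same total, was 0.11 and not called.

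Of the 4 collagen-binding alpha subunits, *ITGA2* alone was called in del-4 against del-56. *ITGA2*, which pairs with *ITGB1* to bind collagen, had 1078, 909 and 980.4 in WT, against 844, 914 and 884 in del-4, with 290.1, 203 and 289 in del-56. The del-56 libraries stood far below all others, and del-4 overlapped WT. It fell in del-56 at a log2 fold change of -1.94 (adjusted p = 2.0e-08, SE 0.14), where its mean was at 0.263 of that in WT, and was at -0.16 (adjusted p = 0.13, SE 0.083) in del-4. The latter passed the test only with libraries rescaled to the same total (log2 fold change -0.23).

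The window upstream of *ITGA2* is shown as that of the integrin with the largest difference between the *EPCART*-del clones. It lies at chr5:52989102-52989351 on the plus strand, by RefSeq on GRCh38.p14, with the capitals as above. It held 4 GC boxes and 26 CpG, with 76.4% G or C, and neither the TATA box core nor the E-box.
ITGA2: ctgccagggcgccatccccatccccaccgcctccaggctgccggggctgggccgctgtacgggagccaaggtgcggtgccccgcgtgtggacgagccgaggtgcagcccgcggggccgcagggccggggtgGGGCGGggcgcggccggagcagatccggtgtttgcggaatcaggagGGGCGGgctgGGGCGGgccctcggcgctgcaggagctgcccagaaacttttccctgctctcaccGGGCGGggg

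*ITGA11*, a receptor for fibrillar collagen, had 52.2, 54.0 and 33.9 in WT, against 61.5, 83.7 and 46.2 in del-4, with 70.6, 129 and 114 in del-56. The del-56 libraries were above WT, and del-4 overlapped both. It rose in del-56, with a log2 fold change of 1.13 (adjusted p = 0.0069, SE 0.30), and was 0.43 (adjusted p = 0.31, SE 0.32) in del-4. *ITGA1* held 7484 ± 134 normalized counts (SD, n = 3) in WT, but *PELO*, which lies inside it on the same strand, had 87.3% of its mean. Without the reads of *PELO* it had 981, 899.5 and 935 in WT, against 1044, 1078 and 983 in del-4, with 863, 842 and 926 in del-56. *ITGA1* was not called in either clone in the deposited values, and *ITGA10* had a mean of 29.1 and was not called.

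Of the laminin-binding group, *ITGA3* and *ITGB4*, named after their values were seen, rose in del-56. *ITGB4*, the partner of *ITGA6* in hemidesmosomes, had 344 ± 30.9 (SD, n = 3) in WT, against 307 ± 63.4 in del-4 and 467 ± 79.7 in del-56, with a log2 fold change of 0.43 (adjusted p = 0.020, SE 0.14) in del-56 that was lost without del-56 replicate 1, WT replicate 1 or WT replicate 3 (adjusted p = 0.062 to 0.11). Its span partly overlaps *GALK1*. *ITGA3* had 651 ± 81.7 in WT and 810.0 ± 90.5 in del-56, with a log2 fold change of 0.32 (adjusted p = 0.032, SE 0.11). That call was lost without del-56 replicate 1, del-56 replicate 2, WT replicate 1 or WT replicate 3 (adjusted p = 0.079 to 0.14), and also in 1 fit of all 9 libraries, with libraries rescaled to the same total and with the chromosome median subtracted. *ITGA7*, of muscle, had a mean of 56.6 and was not called, and it partly overlaps *BLOC1S1*, which had a mean of 5060.4.

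Integrins known from leukocytes and platelets were mostly low. *ITGAD*, an alpha subunit of macrophages on chromosome 16, had 109, 187 and 189 in WT, against 90.3, 118 and 64.3 in del-4, with 91.6, 54.2 and 50.9 in del-56. The del-56 libraries were all below WT, and del-4 overlapped WT at one library of each. It fell in both clones, with log2 fold changes of -0.83 (adjusted p = 0.017, SE 0.26) and -1.30 (adjusted p = 0.0016, SE 0.28). The del-4 call was lost without del-4 replicate 3, WT replicate 2 or WT replicate 3 (adjusted p = 0.093 to 0.11) and with the chromosome median subtracted (log2 fold change -0.48).

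*ITGA2B*, the fibrinogen receptor subunit of platelets, was named after its values were seen. It rose from 56.7 ± 13.7 (SD, n = 3) in WT to 98.8 ± 7.50 in del-4 and 108 ± 30.4 in del-56, without overlap. The log2 fold changes were 0.81 (adjusted p = 0.018, SE 0.26) and 0.90 (adjusted p = 0.021, SE 0.29). The del-4 call was lost without del-4 replicate 2, del-4 replicate 3 or WT replicate 2 (adjusted p = 0.052 to 0.085), and the del-56 call without del-56 replicate 2, del-56 replicate 3 or WT replicate 2 (adjusted p = 0.091 to 0.098).

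*ITGAE*, whose product binds E-cadherin together with *ITGB7*, was second among integrins per kb, with 6772 ± 97.6 normalized counts in WT, against 6589 ± 195 in del-4 and 7052 ± 194 in del-56 (SD, n = 3). *HASPIN*, which lies inside it on the opposite strand, had 42.2% of its mean, and without those reads *ITGAE* had 4027, 3716 and 3846 in WT, against 3876, 3973 and 3818 in del-4, with 3771, 4022 and 4362 in del-56. It was not called in either clone, but was called lower in del-4 with libraries rescaled to the same total (log2 fold change -0.11). *ITGB2*, *ITGA9* and *ITGB7* had means of 486, 281 and 139.5, *ITGA8* had 14.3, and *ITGAL*, *ITGAM* and *ITGAX* had 4.90, 6.12 and 1.51. None of these 7 was called. *ITGB7* partly overlaps *ZNF740*, which had a mean of 6130.2. The T cell marker *CD3E* stayed at 0 reads in every library. *CD68*, a marker of macrophages, had 499 ± 16.8 normalized counts in WT, against 559.5 ± 8.82 in del-4 and 538 ± 22.7 in del-56 (SD, n = 3), and its part in these levels was not tested.

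*ITGB3BP* and *ITGBL1*, which are not integrins, were not called in either clone. *ITGB3BP* had 3420.3 ± 86.7 in WT, against 3228 ± 77.8 in del-4 and 3259 ± 199.7 in del-56 (SD, n = 3). *EFCAB7* lies inside it with 25.5% of its mean, and without those reads *ITGB3BP* had 2773, 2564 and 2710.1 in WT, against 2294, 2357 and 2284 in del-4, with 2317, 2338 and 2503 in del-56. It was then called lower in both clones, at log2 fold changes of -0.21 and -0.17. With the chromosome median subtracted instead, *ITGB3BP* was also called lower in both, at -0.20 and -0.19. With libraries rescaled to the same total it was called lower in del-4, at -0.15. *PGM1* partly overlaps *ITGB3BP*, with 43.1% of its mean. *ITGBL1* had a mean of 6.37 and partly overlaps *FGF14*, which had a mean of 10.7.

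**Figure D4:**
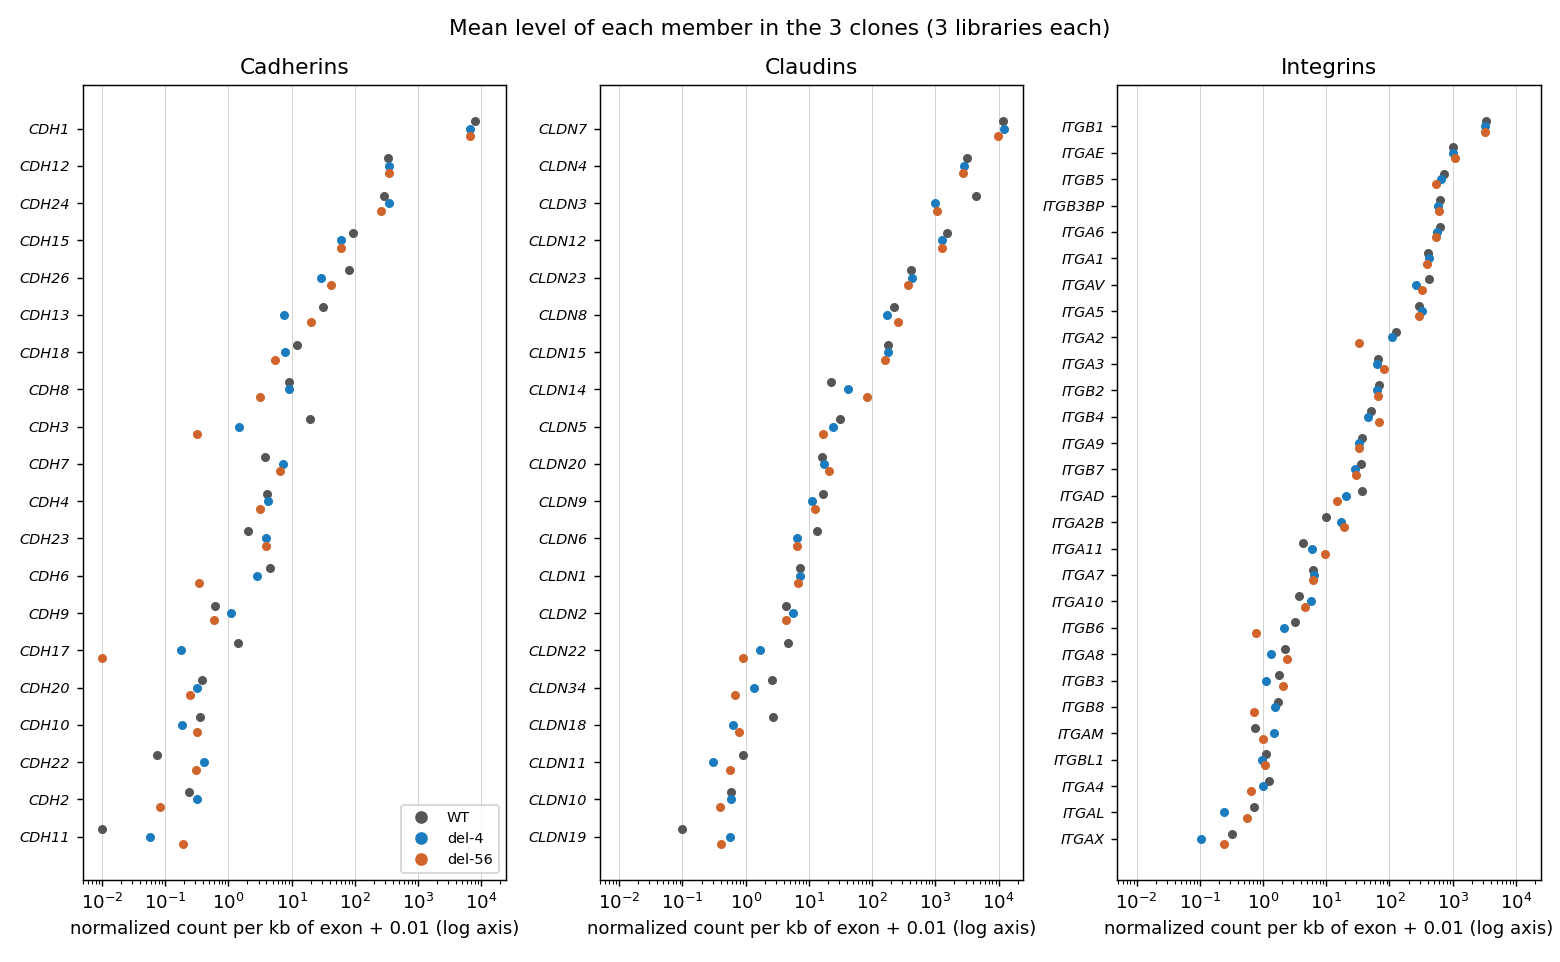
Mean normalized count per kb of exon of each member in WT (grey), del-4 (blue) and del-56 (orange), on a log axis, by family and in order of the mean over the 9 libraries. A few members hold most of the level of each family, and *CLDN3* lies above *CLDN4* and *CLDN12* in WT and below them in the *EPCART*-del clones.

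Summed per kb of exon, the claudins came to 21844 ± 332 normalized counts (SD, n = 3) in WT, against 18104 ± 903 in del-4 and 15769 ± 486 in del-56. None of the clones overlapped, and *CLDN7* took 53.9%, 67.1% and 61.9% of the sum. The cadherin sum was 8883 ± 245 in WT, against 7411 ± 237 in del-4 and 7311 ± 291 in del-56. For integrins it was 7908 ± 68.8 in WT, against 7411 ± 47.2 in del-4 and 7391 ± 52.1 in del-56. In both of these families WT lay above the *EPCART*-del clones, which overlapped each other. These sums rest on exon length and hold the intron and nested reads named above.

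The *EPCART*-del clones were compared with each other to see which members differed between them. In del-4 against del-56, 6 of 66 members were higher and 6 lower, against 10.9% and 9.0% of all genes tested. Rescaling libraries to the same total shifted all genes from 1898 higher and 1571 lower to 1380 and 2381, and the members to 6 and 8. *CDH6*, *ITGA2* and *CDH8* were higher in del-4, with log2 differences (del-4 minus del-56) of 2.69 (adjusted p = 0.0035, SE 0.60), 1.77 (adjusted p = 2.6e-08, SE 0.13) and 1.52 (adjusted p = 0.00048, SE 0.27). *CDH13* and *CLDN14* were lower, with -1.38 (adjusted p = 0.00010, SE 0.21) and -1.02 (adjusted p = 0.0011, SE 0.20). For *CLDN3* and *CDH1* the differences between the clones were -0.10 (adjusted p = 0.47, SE 0.084) and 0.0047 (adjusted p = 0.96, SE 0.042), with 95% intervals of -0.28 to 0.079 and -0.084 to 0.094. For *CDH3* it was 2.41 (adjusted p = 0.069, SE 0.90), and it passed the test in 1 fit of all 9 libraries, without a filter on low values, and without del-56 replicate 2 (adjusted p = 0.023). For *ITGA3* it was -0.37 (adjusted p = 0.050, SE 0.13), which passed by edgeR and DESeq2 (adjusted p = 0.035 and 0.040).

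The partners of these receptors were read from lists of junction and adhesion genes. Their counts stand beside 20.5% of all genes tested that rose and 20.2% that fell in del-4, and for del-56 beside 19.2% and 20.5%. Of 7 catenins, which tie cadherins to actin, 2 rose and none fell in either clone, with medians of -0.0079 and 0.030. These were *CTNNB1*, with log2 fold changes of 0.25 and 0.21, and *JUP* (plakoglobin), with 0.11 and 0.14. Of 12 desmosome genes, 5 rose and 3 fell in del-4, and 7 rose and 3 fell in del-56. *DSC3*, a desmosomal cadherin of basal and stratified layers, fell from 4088 ± 106 in WT to 489 ± 31.1 in del-4 (SD, n = 3), at -3.06, and to 567 in del-56, at -2.85. *DSC2*, the desmosomal cadherin of simple epithelia, rose at 0.86 in del-4 and at 0.099 in del-56. *DSG4*, of hair follicles, rose in del-56 at 2.57 from a mean of 4.45 in WT, and was at 1.45 and not called in del-4.

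Of 11 tight junction genes other than claudins, 1 rose and 6 fell in del-4, and 3 rose and 6 fell in del-56, with medians of -0.18 and -0.17. *CGN* (cingulin) and its paralog *CGNL1* fell in del-4 at log2 fold changes of -0.74 and -0.64, and less in del-56, at -0.31 and -0.17. In del-56 *MARVELD3*, a relative of occludin on chromosome 16, fell by 0.57, where the median of that chromosome was -0.31, and *TJP3* (ZO-3) rose by 0.39.

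Of 18 integrin adaptors, 4 rose and 5 fell in del-4, and 7 rose and 4 fell in del-56. *PARVA*, the parvin of the complex with integrin-linked kinase, rose from 660.1 ± 77.8 in WT to 2424 ± 144 in del-4, and to 3959 in del-56, at log2 fold changes of 1.88 and 2.59. *BCAR1*, a focal adhesion scaffold on chromosome 16, fell at -0.47 in del-4 and -0.32 in del-56, where the medians of that chromosome were -0.34 and -0.31. *TNS3*, a tensin, rose in del-56 at 0.78, and was at 0.30 and not called in del-4.

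Of 19 matrix ligands, 3 rose and 6 fell in del-4, and 2 rose and 5 fell in del-56. The basement membrane collagens *COL4A1* and *COL4A6* fell in del-4 at -1.13 and -0.99, and were at -0.81 and -0.41 and not called in del-56. *LAMA1*, a laminin chain, rose in del-56 at 1.32 and fell in del-4 at -0.86. *SPP1* (osteopontin) had 0 reads in all del-56 libraries, against a mean of 5.75 normalized counts in WT and 5.96 in del-4 (adjusted p = 0.048 for del-56, limma).

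Of 9 factors and markers of epithelial-mesenchymal transition that were tested, none rose and 4 fell in del-4, and 1 rose and 4 fell in del-56. *VIM* (vimentin), an intermediate filament of mesenchymal cells, fell by 0.89 and 0.81 on the log2 scale. *TWIST1*, a transcription factor known to repress E-cadherin, fell by 0.35 and 1.47. The list also holds epithelial genes, and of these *EPCAM* fell in del-4 at -0.15, and the splicing factor *ESRP2*, on chromosome 16, fell at -0.33 and -0.15. Of the mesenchymal transcription factors, *SNAI2* rose in del-56 at 0.73 and *ZEB1* fell there at -0.50. *EPCAM*, *ESRP2*, *SNAI2* and *ZEB1* are named after their values were seen. The sum of 6 fibroblast markers was 1061 to 1142 normalized counts in WT, 1239.8 to 1450.2 in del-4 and 1354 to 1521 in del-56. Most of it was *COL1A1*, with means of 991, 1253 and 1258. *COL3A1* fell from 90.1 to 61.2 and 51.0, and *LUM* rose from 29.3 to 52.8 and 129, both called in del-56 only. *COL1A2*, *DCN* and *PDGFRA* had means of at most 3.87. The sum of 4 neuroendocrine markers was 1722 to 1902, 2426 to 2599 and 1719 to 1856. Most of it was *ENO2*, with 1627, 2356 and 1619. *SYP* fell from 192 to 126 and 147, called in del-4 only, and *CHGA* and *INSM1* had at most 7.63 and 0.636. The part of these markers in the results was not tested. All calls in these lists are by limma with Benjamini-Hochberg adjustment over all genes tested.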

How the data were processed

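RNA was measured in 3 biological replicates each of del-4, del-56 and WT. Per the methods of the study, the authors aligned strand-specific paired-end reads to GRCh38 with STAR 2.71a and counted protein-coding genes of GENCODE 38 with bedtools 2.27.1 multicov. The deposited values are normalized counts (a signal unit), each a read count that the authors divided by 1 DESeq2 size factor per library. Whole reads were recovered in 100% of values (tolerance 0.001). Of 19984 identifiers, 19905 were matched to GENCODE 44.

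Log2(normalized count + 1) was compared between clones with limma 3.58.1 (R 4.3.3, variance trend), keeping genes that averaged 1 or more in the 6 libraries of a fit, with Benjamini-Hochberg adjustment over all genes tested. A fold change on this scale understates that of low genes. The test was checked on simulated counts with an assumed spread, in which 2-fold changes were put into well-expressed genes only, so the check does not cover members of low level. Depth (91074556 to 118877134 reads) limits precision, and errors cover counting and replicate spread only.

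Named genes were those called at 2-fold or more in either clone, the 3 highest per kb of exon in each family, *CDH1*, *CDH2*, *CDH3*, *ITGB1*, *ITGAV*, *ITGA4*, *ITGA6*, *CLDN3*, *CLDN4*, *CLDN7*, *ITGB3BP* and *ITGBL1*, any member called in opposite directions, and, in each partner list and clone, the 2 largest called changes. Members and lists were chosen with earlier results of these data known. Alternatives were edgeR 4.0.16, DESeq2 1.42.0, other pseudocounts (0.5 and 5), filters and scalings, 1 fit of all 9 libraries, a replicate block, subtraction of chromosome medians, leaving out each library and, chosen after seeing the data, subtraction of nested genes' reads. *EPCART* itself was not analysed here.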

Additional observations from a re-analysis of the deposited data

Results flagged for a closer look

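For 12 of 66 members tested the change against WT differed between the *EPCART*-del clones, by the test of del-4 against del-56 itself (limma, adjusted p under 0.05 over all genes tested). Of the members, 9.09% were higher in del-4 and 9.09% lower. These shares were close to the 10.9% and 9.0% of all genes tested. On the log2 scale, del-4 minus del-56, the difference was 2.69 for *CDH6*, 1.77 for *ITGA2* and 1.52 for *CDH8*, each of which fell in del-56 alone. It was 0.31 for *CLDN7*, 0.43 for *CDH24* and 0.25 for *ITGB5*. The difference was negative for *CDH13* at -1.38, *CDH26* at -0.53 and *ITGAV* at -0.33, which fell in both clones and more in del-4. It was also negative for *CLDN14* at -1.02, *CLDN8* at -0.57 and *ITGB4* at -0.61. The call was lost for *CDH26* without del-4 replicate 1, del-4 replicate 3, del-56 replicate 2 or del-56 replicate 3 (adjusted p = 0.058 to 0.14) and with no filter on low values (adjusted p = 0.051). It was lost for *ITGB4* without del-4 replicate 1 or del-56 replicate 1 (adjusted p = 0.062 to 0.075) and for *ITGB5* without del-4 replicate 1, del-4 replicate 3 or del-56 replicate 3 (adjusted p = 0.057 to 0.070). Differences between single clones and between biological responses cannot be told apart here.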

How the results depend on the processing

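Counts of members called stayed within 1.5 times the reported ones under every alternative run other than leaving out a library. Leaving out a library gave 3 to 6 members higher in del-4 and 4 to 5 higher in del-56. The median log2 fold change of claudins in del-4 was -0.11 over genes averaging 10 or more, -0.28 rescaled to the same total and -0.17 with chromosome medians subtracted, and ran from -0.21 to -0.18 without 1 library. In del-56 it was -0.24 without a filter, -0.19 at an average of 10 or more, -0.29 rescaled and -0.18 with chromosome medians subtracted, and ran from -0.28 to -0.23. The cadherin median in del-56 was -0.62 with a pseudocount of 0.5, -0.28 with 5, -0.39 without a filter, -0.62 at an average of 10 or more, -0.61 by DESeq2 and -0.32 with chromosome medians subtracted, and ran from -0.57 to -0.27. The integrin median in del-56 was -0.12 with the reads of nested genes subtracted and ran from -0.14 to -0.036. The change of *CDH1* turned to 0.060 in del-4 and 0.024 in del-56 with the median of chromosome 16 subtracted, which by construction removes what the chromosome shares. Beyond construction the causes of these shifts were not tested.

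The replicate numbers are not stated to pair libraries of different clones, so they were not taken to pair them. Deviations of same-numbered libraries from their clone means correlated at -0.053 to 0.063 over 15373 genes. With a replicate block 6 members rose and 13 fell in del-4, 6 rose and 19 fell in del-56 (*ITGA3* was then not called, adjusted p = 0.053), and 6 were higher and 6 lower in del-4 against del-56. Of 6 libraries, 6 correlated best with their own number in del-4 with WT, 0 in del-56 with WT and 6 in del-4 with del-56. These values do not settle whether the numbers pair the libraries.

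Of 1253 values of 35 single members against WT under alternatives, 65 lost a call and 11 gained one, and of 624 in del-4 against del-56, 10 lost a call and 12 gained one. Across both, 52 uncalled values changed sign. Genes with few reads, such as *CDH2* and *ITGBL1*, limit what can be detected.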
